A study of Mus musculus with 6 samples.

Results

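Matrix metalloproteinases (MMPs), their tissue inhibitors (TIMPs), the sheddase gene Adam17 and the osteopontin gene Spp1 were examined as genes relevant to the stability of atherosclerotic plaques. The set comprised 10 named genes, Mmp8, Mmp9, Mmp12, Mmp13, Mmp14, Mmp19, Timp1, Timp2, Adam17 and Spp1, out of 24562 gene symbols in the count table. RNA sequencing covered 3 control and 3 AclyM-KO libraries of bone marrow-derived macrophages (BMDMs), left unstimulated after 7 days of differentiation in medium with L929-conditioned medium. AclyM-KO mice carried loxP sites around exon 9 of Acly, which encodes ATP citrate lyase, together with Cre recombinase under the Lyz2 promoter, which is active in the myeloid lineage. Controls carried the same floxed alleles (Acly fl/fl) without Cre, both groups had a C57Bl/6J background, and mice used for cell culture were 8 to 14 weeks old. The depositors describe the mice of these libraries as female, while the study's reporting summary names both sexes for its cell culture work in general. Figure legends of the study call such replicates technical replicates from 3 pooled mice, so the p-values below measure only the spread between these libraries. Spread between mice was not measured.

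MMPs are secreted or membrane-anchored zinc proteases that cut collagens, elastin and other matrix proteins, and most are made as inactive proenzymes. TIMPs block their active sites, and Timp2 also has a second role, since together with Mmp14 on the cell surface it takes part in activating pro-Mmp2. In plaques, macrophages are a known source of these enzymes, and loss of fibrillar collagen from the fibrous cap is a textbook feature of vulnerable lesions. Adam17 releases the ectodomains of TNF and many receptors, and osteopontin is a matrix-associated glycoprotein that binds integrins and CD44.

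The promoters of the collagenase and elastase genes that differed most are shown with that of Mmp14, which went the other way, and that of Spp1, the most abundant transcript. Each sequence holds the 250 bases before an annotated start (RefSeq, GRCm38.p6), written 5′ to 3′ on the strand of the gene. A promoter was listed for 8 of the 10 genes, with 10 windows in all. Mmp9 and Mmp19 have no entry. Capitals mark motifs searched on both strands. The AP-1 motif was searched as TGANTCA. The TATA box was searched as TATAAA. The GC-rich Sp1 box was searched as GGGCGG. The core bound by ETS factors was searched as AGGAAG. The sterol regulatory element was searched as TCACNCCAC. For Mmp12 the window before the downstream one of its 2 starts is shown, which is the start of the transcript counted here.
Mmp13, chr9:7272264-7272513, plus strand: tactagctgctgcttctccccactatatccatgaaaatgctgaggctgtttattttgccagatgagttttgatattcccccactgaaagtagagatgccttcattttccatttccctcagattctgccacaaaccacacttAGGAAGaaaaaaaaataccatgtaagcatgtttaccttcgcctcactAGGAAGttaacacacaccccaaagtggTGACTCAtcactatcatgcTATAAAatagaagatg
Mmp12, chr9:7347124-7347373, plus strand: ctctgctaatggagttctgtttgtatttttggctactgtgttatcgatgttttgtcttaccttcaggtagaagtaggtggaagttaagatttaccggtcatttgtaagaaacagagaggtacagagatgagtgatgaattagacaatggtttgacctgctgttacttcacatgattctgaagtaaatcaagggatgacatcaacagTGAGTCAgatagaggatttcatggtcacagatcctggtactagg
Mmp8, chr9:7558179-7558428, plus strand: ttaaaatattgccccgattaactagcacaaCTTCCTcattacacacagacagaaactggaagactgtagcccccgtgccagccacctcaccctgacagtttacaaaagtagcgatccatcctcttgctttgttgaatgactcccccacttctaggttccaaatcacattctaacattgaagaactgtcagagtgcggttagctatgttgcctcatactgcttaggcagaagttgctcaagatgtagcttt
Mmp14, chr14:54431348-54431597, plus strand: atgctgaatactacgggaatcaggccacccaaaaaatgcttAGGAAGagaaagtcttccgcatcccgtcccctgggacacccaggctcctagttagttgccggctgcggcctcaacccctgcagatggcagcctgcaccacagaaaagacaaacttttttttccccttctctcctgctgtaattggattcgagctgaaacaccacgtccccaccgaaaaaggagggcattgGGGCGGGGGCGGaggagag
Spp1, chr5:104434861-104435110, plus strand: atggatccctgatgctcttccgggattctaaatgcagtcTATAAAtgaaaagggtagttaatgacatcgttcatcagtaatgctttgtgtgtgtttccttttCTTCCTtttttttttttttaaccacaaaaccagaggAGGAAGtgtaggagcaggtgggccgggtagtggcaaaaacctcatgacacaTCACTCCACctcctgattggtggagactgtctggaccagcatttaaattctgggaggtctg
Mmp13 held an AP-1 match at -35 to -29 and a TATA match at -16 to -11, counted from the start. Mmp12 held an AP-1 match at -44 to -38. AP-1 letters of this kind were in 6.75% of 32851 promoters of the same length, and TATA letters in 12.4%. Mmp8 held no AP-1 match in this window. Mmp14 held 2 adjacent Sp1 boxes at -19 to -8, and an Sp1 box was also in the windows of Timp1, Timp2 and Adam17, against 32.7% of all promoters. Spp1 was the only one of the 8 genes with the sterol regulatory letters, at -61 to -53, which 1.05% of promoters held. ETS letters were in 29.5% of promoters, and in windows of Mmp8, Mmp13, Mmp14, Timp1, Adam17 and Spp1. For Mmp12 they were in the window before its upstream start, which is not shown, and not in the one printed. A match describes these letters and was not tested as a binding site.

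Depth differed among the libraries. Total counts over all transcripts ranged from 19327459 to 44507233, and AclyM-KO replicate 2 had 2.2 times the mean of the other 5 libraries when each gene was counted once. The deleted gene was lower in the libraries labelled as knockout, with 229.7 ± 8.18 CPM (counts scaled to library size; SD, n = 3) of Acly in control libraries against 96.8 ± 3.06 CPM (SD, n = 3) in the others. Macrophage genes were abundant in all libraries. The 9 macrophage markers summed to between 25044 and 25904 CPM in control and between 17434 and 19473 CPM in AclyM-KO libraries. Lyz2, whose promoter drives the Cre, accounts for the lower sum, at 13031 to 13836 CPM in control and 5606 to 6980 CPM in AclyM-KO libraries. Summed without Lyz2, the other 8 markers came to 12012 to 12108 CPM in control and 11828 to 12676 CPM in AclyM-KO libraries, which overlap. That sum holds opposite shifts, since mean Csf1r went from 3237 CPM in control to 2325 CPM in AclyM-KO libraries and mean Lgals3 from 3341 to 4498 CPM. Of the 9 markers, 3 were lower (Lyz2, Mertk and Csf1r), Lgals3 was higher, and Adgre1 (log2 fold change 0.07), Cd68 (0.01) and Itgam (0.001) were among the 5 that were not called. For any gene below, in bulk RNA, fewer cells of a type and less RNA per cell cannot be told apart.

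Acly-deficient macrophages had more transcript of 4 secreted MMPs and of Spp1, and less of the membrane-type enzyme Mmp14. The largest difference was in the collagenase gene Mmp13, which was 4.19-fold higher. Mmp8 was 2.30-fold, Mmp9 2.25-fold, Mmp12 1.75-fold and Spp1 1.27-fold higher, while Mmp14 was at 0.449 of the control level. Of the 10 genes, 9 had enough counts for the test, each with at least 56 counts in every library, and Timp1 did not. By edgeR's quasi-likelihood test with an adjusted p of 0.05 as threshold, 5 of the 9 were higher, against 6.7% of all 11470 genes tested, and 1 was lower, against 5.65%. That is 6 of 9 called in either direction, against 12.3% of all genes tested. Without control replicate 1 or without control replicate 3, 3 of the 9 were higher, and without AclyM-KO replicate 2, 2 were lower. Control and AclyM-KO libraries did not overlap in 8 of the 9, all but Mmp19, against 32.8% of all genes tested. The median log2 fold change of the 9 was 0.34, beside 0.00026 over all genes tested. The genes were chosen with earlier results of these data known, so these comparisons with all genes describe the set and do not test it.

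**Figure D1:**
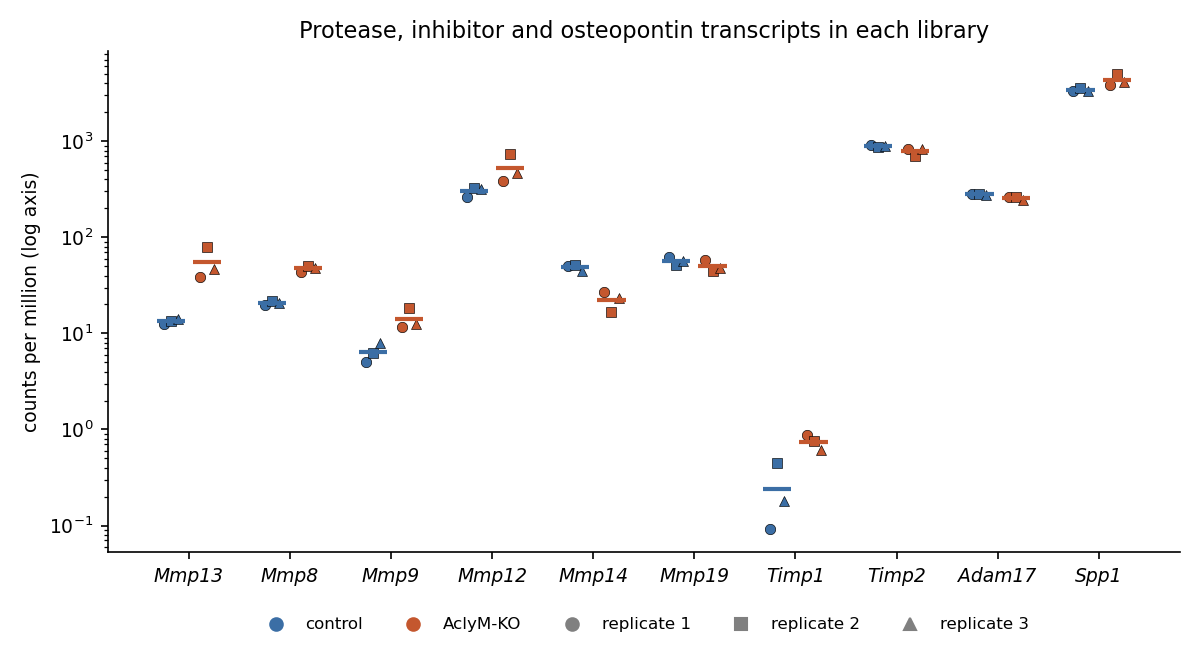
Transcript level of the 10 genes in CPM (log axis) in each of the 6 libraries, with control in blue, AclyM-KO in orange, symbol shape for the replicate number and a line at each group mean. AclyM-KO points lie above all control points in Mmp13, Mmp8, Mmp9, Mmp12, Spp1 and Timp1, which had few counts. They lie below all control points in Mmp14, Timp2 and Adam17. In Mmp19, AclyM-KO replicate 1 lies among the control points and replicates 2 and 3 lie below them. AclyM-KO replicate 2 is the point farthest from the control mean in the 6 called genes.

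Mmp13 encodes collagenase 3, which can cleave intact fibrillar collagen (chromosome 9, 7272514 to 7283331 on the plus strand, 10 exons, mm10). It was measured at 12.5, 13.3 and 14.3 CPM in control replicates 1, 2 and 3. In AclyM-KO replicates 1, 2 and 3 it was at 38.7, 80.2 and 46.2 CPM. Every AclyM-KO library lay well above the 3 closely spaced controls, and replicate 2 stood highest. The counts behind these values were 137, 178 and 158 in control and 444, 2123 and 530 in AclyM-KO libraries. Its mean was 13.3 ± 0.898 CPM in control and 55.0 ± 22.1 CPM in AclyM-KO macrophages (SD, n = 3 each), which gave a log2 fold change of 2.07 (standard error, SE, 0.233, 95% interval 1.56 to 2.57, adjusted p = 2.60e-04 in edgeR). Without AclyM-KO replicate 2 the change was 1.67 (adjusted p = 1.19e-09).

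Mmp8 (collagenase 2, known mainly from neutrophils, chromosome 9, 7558456 to 7568485 on the plus strand, 10 exons) stood at 19.7, 21.8 and 20.5 CPM in control and at 43.3, 50.8 and 48.3 CPM in AclyM-KO libraries. The groups were far apart relative to their spread, and replicate 2 was close to the other AclyM-KO libraries. Means were 20.7 ± 1.06 CPM for control and 47.5 ± 3.85 CPM for AclyM-KO macrophages (SD, n = 3 each), which gave a log2 fold change of 1.20 (SE 0.096, 95% interval 0.99 to 1.41, adjusted p = 1.75e-05 in edgeR). The change was 1.15 without AclyM-KO replicate 2. Markers of neutrophils, the cells best known for Mmp8, were measured beside it. The 13 neutrophil markers summed to 35.9 to 40.2 CPM in control and 36.9 to 40.5 CPM in AclyM-KO libraries, so the ranges overlapped. None of the 6 markers that were tested passed the threshold in edgeR, 0 had an unadjusted p under 0.05, and DESeq2 called 0. Ly6g had 0 to 2 counts and Elane 0 to 3 counts per library.

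The gelatinase gene Mmp9, whose product cuts denatured collagen and basement membrane collagen, was the least expressed per length of the 4 MMPs that rose. Mmp9 (chromosome 2, 164948219 to 164955850 on the plus strand, 13 exons) was at 5.09, 6.20 and 8.03 CPM in control and 11.8, 18.3 and 12.5 CPM in AclyM-KO libraries, from 56 to 89 and 135 to 484 counts. The lowest AclyM-KO library was above the highest control. Means were 6.44 ± 1.48 CPM for control and 14.2 ± 3.58 CPM for AclyM-KO macrophages (SD, n = 3 each), which gave a log2 fold change of 1.17 (SE 0.207, 95% interval 0.71 to 1.62, adjusted p = 0.00439 in edgeR). Without AclyM-KO replicate 2 it was 0.91 (adjusted p = 8.84e-04).

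Mmp12, macrophage metalloelastase, was the most abundant per length of the 6 MMPs in both groups. It had 265, 328 and 321 CPM in control and 389, 741 and 465 CPM in AclyM-KO libraries (chromosome 9, 7347374 to 7360461 on the plus strand, 10 exons). The groups did not overlap, but AclyM-KO replicate 1 lay much nearer to the controls than to replicate 2. Means were 304.6 ± 34.5 CPM for control and 532.0 ± 185 CPM for AclyM-KO macrophages (SD, n = 3 each), which gave a log2 fold change of 0.81 (SE 0.185, 95% interval 0.40 to 1.21, adjusted p = 0.0160 in edgeR). Without AclyM-KO replicate 2 the change was 0.49 (adjusted p = 1.95e-04). The call was lost with DESeq2 (adjusted p = 0.0618), without control replicate 1 (0.0808) and without control replicate 3 (0.0528), over a range of adjusted p from 6.73e-05 to 0.0808 in the 16 alternatives.

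Mmp14, the membrane-type protease also called MT1-MMP, was the 1 gene of the set called lower by edgeR over all 6 libraries. Control libraries held 50.4, 52.1 and 44.8 CPM and AclyM-KO libraries 27.1, 16.9 and 23.5 CPM (chromosome 14, 54431612 to 54441265 on the plus strand, 10 exons). All AclyM-KO libraries were far below all controls, with replicate 2 lowest. Its mean was 49.1 ± 3.79 CPM in control and 22.5 ± 5.16 CPM in AclyM-KO macrophages (SD, n = 3 each), which gave a log2 fold change of -1.15 (SE 0.147, 95% interval -1.48 to -0.83, adjusted p = 6.73e-04 in edgeR). Without AclyM-KO replicate 2 the change was -0.96 (adjusted p = 6.78e-07). Mmp2, the gelatinase that Mmp14 and Timp2 help to activate, had only 11 to 31 counts per library, with a log2 value of -0.18 for the difference (adjusted p = 0.769).

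Mmp19, which cuts basement membrane components, was the MMP whose groups overlapped, at 62.9, 51.2 and 57.3 CPM in control and 58.1, 44.3 and 48.4 CPM in AclyM-KO libraries. Control replicate 2 lay below AclyM-KO replicate 1. On the log2 scale the difference was -0.19 (95% interval -0.43 to 0.05, adjusted p = 0.301). It was -0.10 without AclyM-KO replicate 2 (adjusted p = 0.512), -0.12 without control replicate 1 and -0.31 without AclyM-KO replicate 1, and it passed the threshold in 0 of 16 alternatives. Of the exonic bases of Mmp19 (chromosome 10, 128790961 to 128800824 on the plus strand, 9 exons), 27.9% are shared with Tmem198b and Gm47093 read from the other strand. The libraries were strand-specific and HOMER2 counted them with its default settings, whose handling of strand the sources used here do not spell out, so reads of these genes may be included.

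**Figure D2:**
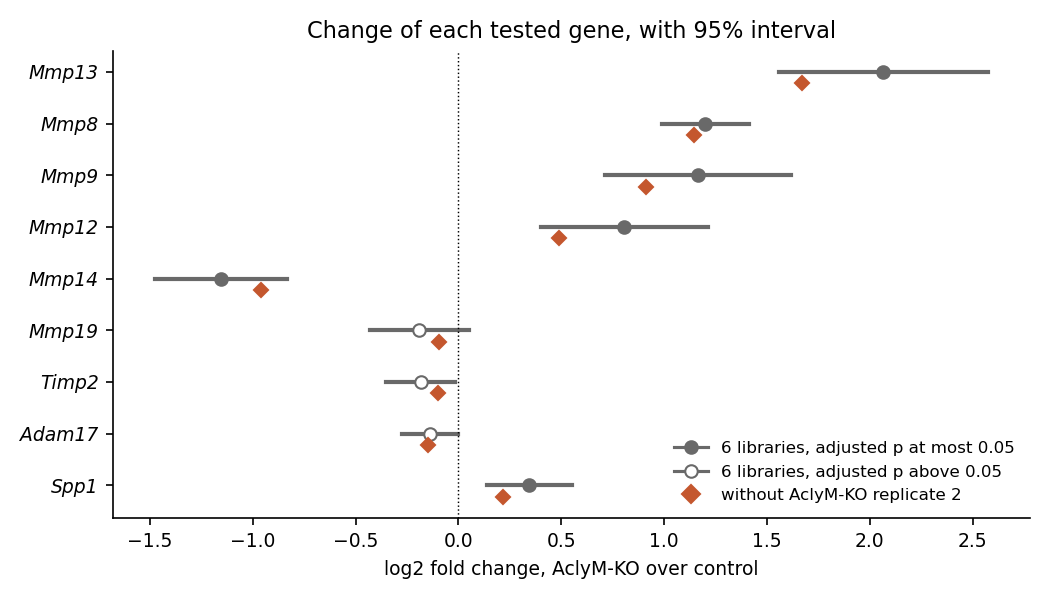
Log2 fold change of the 9 tested genes, AclyM-KO over control, with 95% intervals from all 6 libraries (circles, filled where the adjusted p was at most 0.05) and the value without AclyM-KO replicate 2 (orange diamonds). Without that library, Mmp13 moves from 2.07 to 1.67, Mmp12 from 0.81 to 0.49 and Mmp14 from -1.15 to -0.96, and no gene changes direction.

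AclyM-KO replicate 2, the most deeply sequenced library, was the AclyM-KO library farthest from the control mean in 6 of the 6 called genes. Over all 1416 called genes this held for 947 (66.9%). It stood highest in Mmp8, Mmp9, Mmp12, Mmp13 and Spp1 and lowest in Mmp14. The part of depth in these differences was not tested.

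The inhibitors differed greatly in level from each other. Timp2 (chromosome 11, 118301069 to 118355506 on the minus strand, 5 exons) was at 911.6, 880.8 and 891.3 CPM in control and 828.6, 697.4 and 838.8 CPM in AclyM-KO libraries. Each AclyM-KO library lay below each control. The log2 fold change of -0.18 (SE 0.077, 95% interval -0.35 to -0.01 without adjustment for other genes) did not pass the threshold (adjusted p = 0.149 in edgeR), nor did it in any of the 16 alternatives. Without AclyM-KO replicate 2 it was -0.10 (adjusted p = 0.138). Timp1 (chromosome X, 20870166 to 20874733 on the plus strand, 6 exons) had few reads, since control libraries held 1, 6 and 2 counts of it and AclyM-KO libraries 10, 20 and 7. At 9 counts in all of control and 37 in all of AclyM-KO, the ratio was 2.95 with a 95% exact counting interval of 1.40 to 6.95. That interval covers counting error only, and the fit without a filter on low counts gave an adjusted p of 0.113. Of 6 other inhibitor genes, Timp3, A2m and Pzp were at 0 in every library, and the 1 that was tested, Reck, a membrane-anchored MMP inhibitor, gave a log2 fold change of 0.22 (adjusted p = 0.782).

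Levels of different genes were compared per transcript length, as RPKM, which divides CPM by the transcript's length in kilobases. In control macrophages the order of mean RPKM was Spp1 (2420), Timp2 (241.2), Mmp12 (84.4), Adam17 (63.3), Mmp14 (18.9), Mmp19 (16.8), Mmp8 (8.53), Mmp13 (4.99), Mmp9 (2.03) and Timp1 (0.272). Mmp14 and Mmp19 were the only neighbours whose libraries overlapped. In AclyM-KO macrophages the order was Spp1 (3072), Timp2 (212.5), Mmp12 (147.5), Adam17 (57.5), Mmp13 (20.6), Mmp8 (19.6), Mmp19 (14.8), Mmp14 (8.66), Mmp9 (4.46) and Timp1 (0.844). There, Timp2 overlapped Mmp12, and Mmp13 overlapped Mmp8. Mmp14 thus stood above Mmp8 and Mmp13 in control libraries and below both in AclyM-KO libraries. The RPKM of Mmp12 depends on the transcript, since with a shorter one of 1452 bases, which held 99.3% of the same counts, its mean was 209.8 in control and 366.4 in AclyM-KO libraries, the latter above Timp2.

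Ratios between protease and inhibitor transcripts shifted in the directions that the single genes fix, and are given as a description with no test. Mmp14 over Timp2 in RPKM was 0.0790, 0.0845 and 0.0719 in control and 0.0467, 0.0346 and 0.0400 in AclyM-KO libraries. The summed RPKM of the 6 MMPs over that of Timp1 and Timp2 was 0.512, 0.596 and 0.580 in control and 0.764, 1.49 and 0.853 in AclyM-KO libraries. Mmp12 alone made up 58.4%, 64.0% and 63.8% of the summed MMP level in control and 63.0%, 72.9% and 66.7% in AclyM-KO libraries. These sums therefore follow Mmp12 and Timp2 above all, and they depend on the Mmp12 transcript chosen. With the shorter Mmp12 transcript, an alternative added after seeing the data, the MMP to TIMP ratio was 0.951, 1.16 and 1.12 in control and 1.47, 3.08 and 1.69 in AclyM-KO libraries.

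Spp1, osteopontin, ranked at place 11 in mean RPKM among 11253 tested genes with a known length. It was at 3329, 3560 and 3356 CPM in control and 3845, 5067 and 4091 CPM in AclyM-KO libraries (chromosome 5, 104435118 to 104441048 on the plus strand, 8 exons). The groups did not overlap, and AclyM-KO replicate 2 was again highest. The annotated transcript Gm42793 shares 5.39% of the exonic bases on the same strand. Its mean was 3415 ± 126 CPM for control and 4334 ± 646 CPM for AclyM-KO macrophages (SD, n = 3 each), which gave a log2 fold change of 0.34 (SE 0.095, 95% interval 0.14 to 0.55, adjusted p = 0.0358 in edgeR). The change was 0.22 without AclyM-KO replicate 2 (adjusted p = 0.00279). It missed the threshold when control replicate 1 (0.143), control replicate 2 (0.0898), control replicate 3 (0.143) or AclyM-KO replicate 3 (0.0520) was left out, over a range of adjusted p from 0.00207 to 0.143 in the 16 alternatives.

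All 8 receptor genes of osteopontin on the list were tested, with 1 higher and 3 lower, against 6.7% and 5.65% of all genes tested. The list's median log2 fold change was -0.09. Itgb3, the integrin chain that pairs with Itgav, was higher by 0.78 (73.2 ± 9.16 against 125.6 ± 4.46 CPM, SD, n = 3, adjusted p = 3.09e-04). Itga9 was lower, with a change of -1.29 (12.0 ± 0.763 against 4.92 ± 0.746 CPM, SD, n = 3, adjusted p = 3.82e-04), and so was Itga4 (-0.42, adjusted p = 0.00391). Itgb5, which is outside the naming rule and was singled out after its values were seen, was the other lower gene (-0.33, adjusted p = 0.0356). Cd44 gave a log2 fold change of 0.02 (adjusted p = 0.890).

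Adam17 (chromosome 12, 21323517 to 21373632 on the minus strand, 19 exons) was at 285.1, 283.1 and 276.2 CPM in control and 261.0, 260.1 and 245.9 CPM in AclyM-KO libraries. The groups did not overlap, but the difference was small beside that of the called MMPs. Iah1 on the opposite strand shares 6.82% of its exonic bases. Its log2 fold change was -0.14 (SE 0.062, 95% interval -0.27 to -0.004 without adjustment for other genes, adjusted p = 0.172 in edgeR). The gene passed the threshold in 2 of 16 alternatives, without AclyM-KO replicate 2 (adjusted p = 0.0442) and with limma-voom (adjusted p = 0.0402). Among 11 related sheddases and partners, 9 were tested and 0 were called by edgeR, with 1 at an unadjusted p under 0.05 and 0 called by DESeq2. Rhbdf2 (iRhom2), which carries Adam17 to the cell surface in macrophages, gave a log2 fold change of 0.02 (adjusted p = 0.946), and Adam10 one of 0.11 (adjusted p = 0.319).

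Of 18 listed Adam17 substrates, 16 were tested, 2 were higher and 3 lower, against 6.7% and 5.65% of all genes tested. The list's median log2 fold change was -0.09. The phagocytosis receptors Axl (-0.60, adjusted p = 0.00189) and Mertk (-0.67, adjusted p = 0.00202) were lower, and so was the growth factor receptor Csf1r (-0.48, adjusted p = 0.0391). Tnf, the substrate for which Adam17 is named, was higher (0.55, adjusted p = 0.0357). Without AclyM-KO replicate 2, 1 substrate was higher and 4 were lower.

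The genes Mmp13, Mmp12 and Mmp8 lie in a cluster of 10 Mmp genes that spans 427.1 kb of chromosome 9, from 7272514 to 7699585. In chromosomal order the genes are Mmp13, Mmp12, Mmp1b, Mmp3, Mmp1a, Mmp10, Mmp8, Mmp27, Mmp20 and Mmp7. Of these, 4 were tested and all 4 were higher in AclyM-KO macrophages, against 6.7% of all genes tested. Mmp13, Mmp12 and Mmp8 are among the genes counted as higher above, and the cluster is described because they lie in it. The fourth was Mmp27, next to Mmp8, at 84.0 ± 2.48 CPM in control and 107.5 ± 6.36 CPM (SD, n = 3) in AclyM-KO macrophages, with a difference of 0.36 on the log2 scale (adjusted p = 0.00807). Mmp1b, Mmp3, Mmp1a and Mmp20 had 0 counts in every library, which allows up to 0.273 CPM in the shallowest library (3 counts, counting error only). Of these, Mmp1b, Mmp3 and Mmp1a lie between Mmp12 and Mmp8. Mmp10, singled out after its values were seen, was not tested and was counted 4, 3 and 2 times in control and 7, 40 and 9 times in AclyM-KO libraries. Mmp7 had 1 count in AclyM-KO replicate 2 and 0 in the other libraries.

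**Figure D3:**
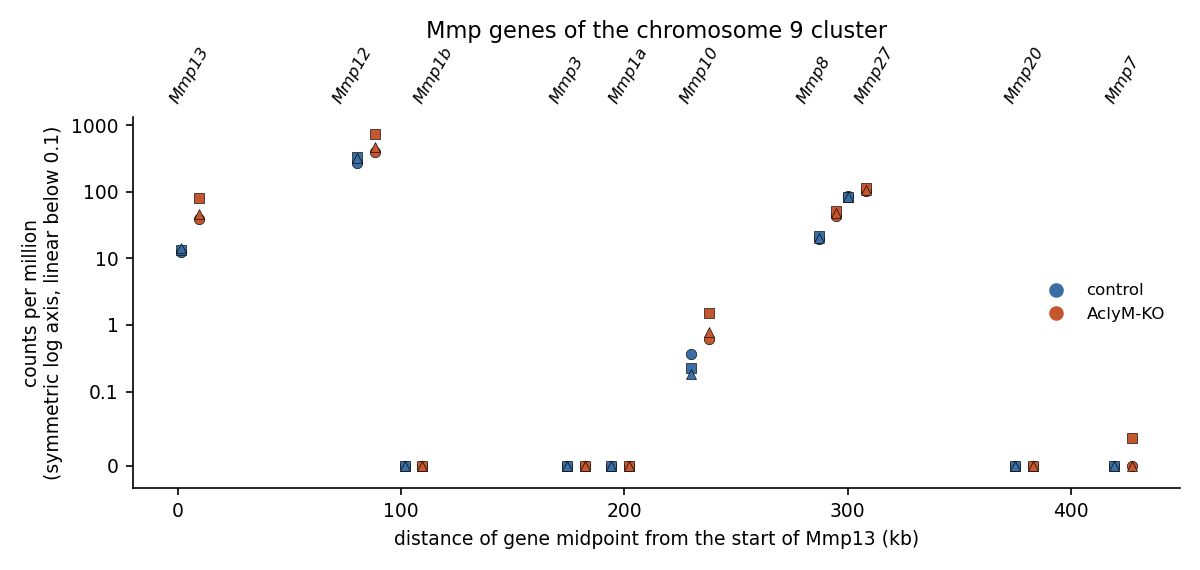
Level in CPM (symmetric log axis, linear below 0.1) of the 10 Mmp genes of the chromosome 9 cluster against the distance of each gene's midpoint from the start of Mmp13 in kb, with control in blue and AclyM-KO in orange, and circles, squares and triangles for replicates 1, 2 and 3. Mmp13, Mmp12, Mmp8 and Mmp27 are separated between the groups, while Mmp1b, Mmp3, Mmp1a and Mmp20 lie at 0.

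Outside the cluster, Mmp9, Mmp14 and Mmp19 lie on chromosomes 2, 14 and 10. Of 17 MMP genes beyond the named 6, 3 were tested and Mmp27 was the 1 that was called, against 12.3% of all genes tested. Mmp24 gave a log2 fold change of -0.01 (adjusted p = 0.969). Mmp21 was at 0 in every library, as were Mmp1a, Mmp1b, Mmp3 and Mmp20.

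The plasminogen system, which activates proenzymes of several MMPs, was followed with a list of 12 genes, of which 7 were tested. Of these, 4 were higher and 1 was lower, against 6.7% and 5.65% of all genes tested. The list's median log2 fold change was 0.32. Anxa2 (0.48, adjusted p = 0.00245) and S100a10 (0.32, adjusted p = 0.0342), which form the cell-surface plasminogen receptor annexin A2 complex, were higher, and so was the urokinase receptor Plaur (0.47, adjusted p = 0.00874). Urokinase itself, Plau, was at 276.0 ± 30.2 CPM in control and 432.0 ± 147 CPM (SD, n = 3) in AclyM-KO macrophages (0.65, adjusted p = 0.0357). The clearance receptor Lrp1, singled out after its values were seen, was the 1 lower gene (-0.51, adjusted p = 0.0393), a call that was lost with scaling to total counts alone. Plg, which encodes plasminogen, had 0 counts in every library.

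**Figure D4:**
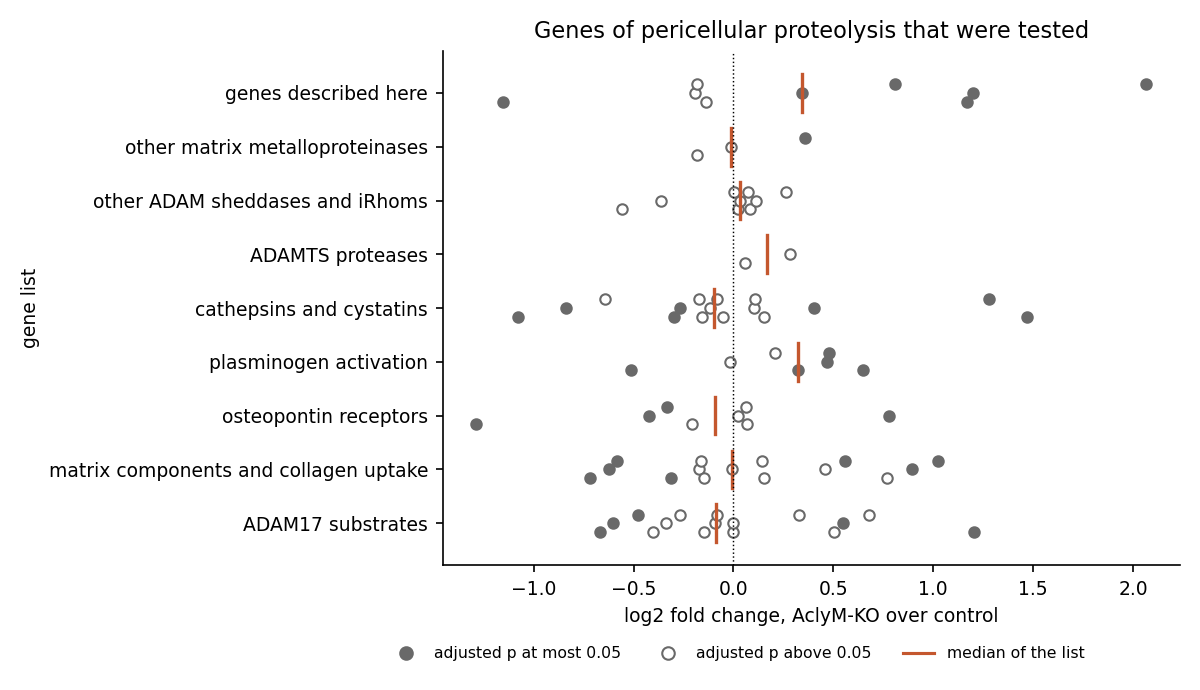
Log2 fold change (AclyM-KO over control) of the tested genes in each list, with filled circles for an adjusted p of at most 0.05, open circles for higher values and an orange line at the median of the list. The plasminogen list has its median at 0.32, the Adam17 relatives at 0.03 with no filled circle, and the 9 tested genes described here reach from -1.15 in Mmp14 to 2.07 in Mmp13.

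AP-1 and ETS factors, named for the letters marked in the promoters above, were counted as a list of 17 genes. Of these, 16 were tested, 1 was higher (Ets2, 0.47, adjusted p = 0.0136) and 1 was lower. These counts are near the shares over all genes tested, 6.7% higher and 5.65% lower. Jun gave a log2 fold change of 0.13 (adjusted p = 0.311) and Fos one of -0.18 (adjusted p = 0.355).

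Genes whose log2 CPM followed that of a member most closely over the 6 libraries were listed among 8326 genes with a mean of at least 10 CPM. These are descriptions over 6 libraries that share the difference between the groups. Closest to Mmp8 were Lss (Pearson r = 0.999), Fdps (0.9989) and Metrnl (0.9988). Closest to Mmp13 were Pid1 (0.9978), S100a4 (0.9978) and Prdx1 (0.9977), and closest to Mmp14 were Fbxo21 (0.9967), Aplp2 (0.9964) and Tecpr2 (0.9962). For scale, the log2 fold changes of Lss and Fdps were 2.29 and 2.16, well above that of Mmp8.

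Markers of other cells that make these proteases were summed as well. The 9 osteoclast markers summed to 642.3 to 681.6 CPM in control and 589.9 to 641.2 CPM in AclyM-KO libraries, so every AclyM-KO sum lay below the controls by a narrow margin. The part of this shift in the results above was not tested. Of 6 tested, Ctsk and Itgb3 were higher and Atp6v0d2 was lower, against 6.7% and 5.65% of all genes tested. Calcr was at 0. Fibroblast and stromal markers (12 genes, 2 tested, 0 called by edgeR or DESeq2 and 0 at an unadjusted p under 0.05) summed to between 2.35 and 4.50 CPM in every library, with Col3a1, Col6a1, Lum and Pdgfra at 0. Lymphoid, dendritic cell, and mast cell and erythroid markers, with 8, 6 and 6 genes and none tested, summed to at most 0.523, 2.01 and 0.264 CPM. In these lists Cd3e, Cd3g, Gzma, Fcer1a, Hba-a1 and Hbb-bs were among the genes at 0.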

How the data were processed

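Total RNA of the 6 libraries was made into mRNA libraries (KAPA HyperPrep). The authors aligned reads to mm10 with STAR 2.5.2b, kept a mapping quality above 15, counted tags per RefSeq transcript with HOMER2 and deposited raw counts, without normalization. The table has 12 columns of values, of which 6 belong to no sample described here and were not used. Of 35745 transcripts, 35440 were named from a RefSeq gene table and 188 from GENCODE M21, 117 kept their accession, and the transcript with the highest total stood for each gene, since transcripts of a gene share reads.

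Groups followed the genotype labels. After filterByExpr and TMM scaling, edgeR 4.0.16 (R 4.3.3) fitted genotype alone, and p from its quasi-likelihood test was adjusted by Benjamini-Hochberg over 11470 genes, at a threshold of 0.05. What edgeR names the biological coefficient of variation was 8.90%, which here describes spread between these libraries and not between mice. CPM used TMM library sizes, and RPKM used those sizes with GENCODE M21 lengths, which may differ from the lengths the authors counted on. Promoters came from a RefSeq table (GRCm38.p6). Mmp9 over Timp1 was not formed, given the few Timp1 counts. An exact permutation test of 3 libraries against 3 cannot give a two-sided p below 0.1, so none was run.

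The members and lists were chosen with earlier results of these data known. Named were all 10 members, up to 3 called genes per list with the smallest adjusted p, partners of members, and the 3 genes closest to each of 3 members. Alternatives were total counts only, RLE size factors, no filter on counts, at least 10 counts in every library, DESeq2 1.42.0, limma-voom (limma 3.58.1) with sample weights, the replicate number as a block, each library left out, all or summed transcripts and a threshold of 0.01. RNA of plaques and of stimulated cells was not analysed here. Some named genes are not reported here but remain in the counts of their lists.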

Additional observations from a re-analysis of the deposited data

How the results depend on the processing

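Mmp8, Mmp9, Mmp13 and Mmp14 kept their direction and call in all 16 alternatives, Mmp12 in 12 and Spp1 in 11, and none of the 10 genes changed direction in an alternative that was run. With a threshold of 0.01, 3 of the genes were higher, over all genes 343 were higher and 214 lower, and Mmp12 and Spp1 were no longer called. Leaving out 1 library at a time, 3 to 5 of the genes were higher and 1 to 2 lower, and over all genes 363 to 1105 were higher and 235 to 1031 lower. Without control replicate 1, 2 or 3, 363, 376 and 384 genes were higher and 235, 282 and 244 lower, and without AclyM-KO replicate 2 or 3, 1031 and 424 were lower. The second lower gene was Adam17, also called with limma-voom, which gave 2 lower among the 10 and 1077 lower over all genes. A fit on all transcripts, which tests more features, called 1297 higher and 1149 lower. Scaling to total counts alone gave 919 higher and 508 lower, against 768 and 648. For Timp1 the sum of transcripts, which counts shared reads several times, gave a log2 fold change of 1.50 (adjusted p = 0.0408), and leaving out libraries gave 1.18 to 2.38. DESeq2 gave no adjusted p for Timp1.

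With the replicate number as a block, 862 genes were higher and 721 lower, and 5 of the 10 genes were higher and 1 lower, as without it. The log2 fold change of Timp1 was 1.51 in that fit. Deviations of same-numbered libraries from their group means correlated at 0.090, 0.114 and -0.047, and control replicate 3 did not correlate best with its own number, so the numbers were not treated as pairs.

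After seeing the data, the lists were recounted without AclyM-KO replicate 2 and with other scalings. Cathepsins and cystatins then had 5 higher genes, against 3, without that library. Depth limits Timp1, Mmp10 and the other genes below the filter.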

Other observations

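Other proteases and matrix genes of the lists changed in both directions. Of 18 cathepsins and cystatins, 16 were tested, 3 were higher and 4 lower, against 6.7% and 5.65% of all genes tested. The list's median log2 fold change was -0.10. Ctsk, a collagen- and elastin-degrading cathepsin, was at 5.27 ± 0.421 CPM in control and 14.6 ± 1.98 CPM (SD, n = 3) in AclyM-KO macrophages, a difference of 1.47 on the log2 scale (edgeR-adjusted p = 1.38e-04). Cst7, a cystatin that inhibits lysosomal cathepsins, was higher by 1.28 (adjusted p = 0.00118), and Ctsh, an aminopeptidase-type cathepsin, was lower with a change of -0.84 (284.9 ± 15.8 against 159.6 ± 21.6 CPM, SD, n = 3, adjusted p = 2.62e-04). ADAMTS proteases, which cut proteoglycans and procollagens, were scarce, with 2 of 9 genes tested and 0 called by edgeR or DESeq2, or at an unadjusted p under 0.05.

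Of 24 genes for matrix components, their cross-linking and collagen uptake, 15 were tested. Here 3 were higher and 4 lower, against 6.7% and 5.65% of all genes tested, around a median of -0.01 on the log2 scale. The cross-linking enzyme Tgm2 was lower (-0.62, adjusted p = 1.61e-04), and Col18a1, a basement membrane collagen, and Tgfbi, a matrix adhesion protein, were higher (0.89 and 0.56, adjusted p = 7.68e-04 and 0.00104). Mrc1, a receptor that takes up collagen fragments, gave a log2 fold change of 0.14 (adjusted p = 0.259), and Tgfb1 one of -0.01 (adjusted p = 0.972).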
